A study of Mus musculus with 58 samples.

Results

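Monocytes taken from the livers of mice with acute colitis were compared, gene by gene, with monocytes taken from control livers. The comparison used every library whose source is given as monocyte and that belongs to the colitis group without bile duct ligation (DSS, 4 libraries) or to the control group (Sham6w, 3 libraries). These are 7 of the 58 libraries of the series, which covered 3 kinds of liver myeloid cell (monocytes, Kupffer cells and macrophages derived from monocytes) in 5 injury groups of 129SV mice. The DSS mice are labelled as having acute colitis. DSS is the usual abbreviation of dextran sulfate sodium, an agent that injures the lining of the colon, and the labels give neither its dose nor a time. The Sham6w mice are labelled as controls at 6 weeks. The DSS libraries carry the replicate numbers 1, 2, 3 and 4. Of the Sham6w libraries, 1 joins 3 replicate numbers (1+2+5), 1 joins 2 (3+6) and 1 carries a single number (4), and the series design says that some replicates were pooled. The colitis response with bile duct ligation was read from monocytes of ligated mice with colitis (CBDL+DSS, 4 libraries) and of mice 6 weeks after ligation (CBDL6w, 4 libraries), where 1 CBDL+DSS library joins 2 replicate numbers (4+5). The sources used here do not give ages, sexes or the gates used to isolate the cells. Whether each replicate number stands for its own animal is not labelled, and the p-values therefore cover no more than the variation among these libraries, which may be technical.

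Monocytes are white blood cells made in the bone marrow, and the mouse has a classical and a patrolling kind. Classical monocytes carry much Ly6C and the chemokine receptor Ccr2, leave the blood at sites of injury and can become macrophages. Patrolling monocytes carry little Ly6C, depend on the nuclear receptor Nr4a1, carry much of the fractalkine receptor Cx3cr1 and survey the vessel wall. Blood from the colon reaches the liver through the portal vein, so liver monocytes are exposed to what an inflamed gut releases.

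The 4 DSS libraries held 235531 to 329439 recovered reads and the 3 Sham6w libraries 237350 to 252775, with 11397 to 12442 genes detected in DSS and 11625 to 12079 in Sham6w. Monocyte markers were present in all 7 libraries. Ccr2 stood at 260 to 338 normalized counts in DSS and 232 to 282 in Sham6w, and the growth factor receptor Csf1r at 149 to 193 in DSS and 118 to 192 in Sham6w. The Kupffer cell lectin Clec4f stood at 5.36 to 20.9 in DSS and 6.56 to 25.7 in Sham6w. Endothelial markers held 0.165 to 0.349% of the reads in DSS and 0.254 to 0.434% in Sham6w, against at most 0.0322% in the monocytes of the ligated groups. Neutrophil markers held 0.0191 to 0.0909% in DSS and 0.032 to 0.237% in Sham6w, so both ranges overlapped. Markers of B cells and plasma cells were lower in every DSS library, at 0.0137 to 0.0291% against 0.043 to 0.0922%, with Cd79a at 0 in all 7. Erythroid markers were lower in every DSS library as well, at 0.0037 to 0.026% against 0.0284 to 0.0368%. Both lists held under 0.1% of the reads of each library.

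Of 6112 genes tested, 97 differed (1.59%), of which 64 were higher in DSS (1.05%) and 33 were lower (0.54%) at an adjusted p under 0.05 by limma, and 1098 had an unadjusted p under 0.05. In 94 of the 97 genes called, no DSS library overlapped a Sham6w library, and the exceptions were Saa3, Rps26 and Usp45. Over all genes tested, every DSS library was above every Sham6w library in 8.57% and below in 7.44%. The genes were called on these same libraries, so the lack of overlap is no separate support. The median log2 difference of all genes tested was -0.03. The higher genes included Plac8 and other myeloid genes, interferon-responsive genes, and small proteins of the ribosome and the respiratory chain. The lower genes included Cx3cr1, Pou2f2, Spp1, nuclear RNAs and genes with long transcripts. The total rested on single libraries: it was 17 without DSS replicate 3, 8 without DSS replicate 4, 30 without Sham6w replicate 1+2+5 and 5 without Sham6w replicate 3+6. It was 2 in a fit of the 7 DSS and Sham6w libraries alone, 11 with libraries of a single replicate number only and 26 with no filter on low values. With edgeR the total was 51 and with DESeq2 257. Each of the 97 genes kept its sign in these fits wherever it was tested, but the fits reuse the libraries on which the genes were called. The kept signs are therefore no separate support. After adjustment for transcript length, described with the make-up of the reads, 10 genes were higher and 13 lower.

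**Figure D1:**
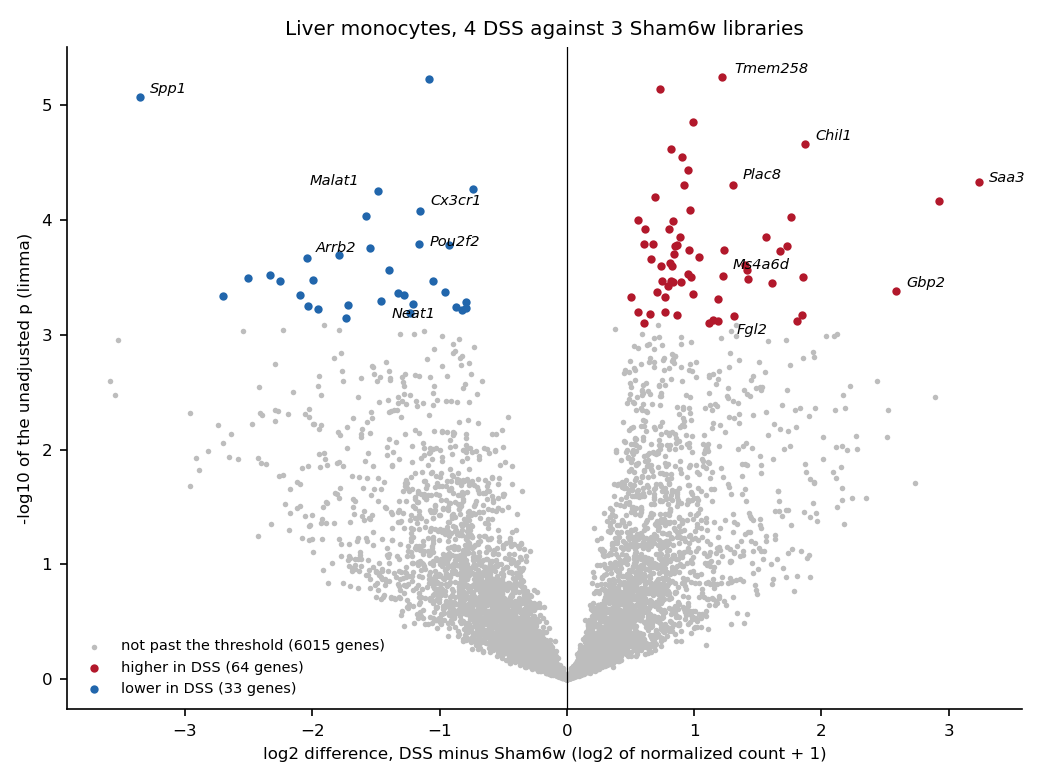
Each point is 1 of the 6112 genes tested, with the log2 difference (DSS minus Sham6w) on the horizontal axis and the negative log10 of the unadjusted limma p on the vertical axis. The 64 red genes were higher in DSS and the 33 blue genes lower, and Spp1, Saa3 and Gbp2 lie far from 0.

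Among the classical monocyte genes, Plac8 rose. Plac8 (ENSMUSG00000029322, chr5:100553725-100572245 on GRCm38, minus strand), a cysteine-rich protein abundant in classical monocytes and granulocytes, had 418, 576, 473 and 649 normalized counts in DSS and 236, 196 and 202 in Sham6w. Every DSS library stood above every Sham6w library. The log2 difference was 1.3 ± 0.26 (SE, adjusted p = 0.0243), and the gene passed in 5 of the 7 fits that each left out 1 library. Of the 19 classical monocyte genes tested, 1 was higher and none was lower, against 1.05% and 0.54% of all genes. The median log2 difference of the list was 0.61, and 16 of 19 members stood above 0, against 48.2% of all genes tested. In 8 of the 19 members every DSS library was above every Sham6w library, a pattern that 8.57% of all genes tested showed.

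The other members named did not pass the test. Ly6c2, which encodes the Ly6C antigen itself, had 249, 259, 228 and 363 normalized counts in DSS and 118, 203 and 197 in Sham6w (log2 difference 0.69 ± 0.19, adjusted p = 0.0663). Every DSS library stood above every Sham6w library in Ly6c2. The lectin Chil3, also called Ym1, averaged 67.6 ± 11.3 in DSS (SD, n = 4) and 35.1 ± 20.8 in Sham6w (SD, n = 3), with overlapping libraries. Ccr2 averaged 291 ± 34.6 in DSS and 253 ± 26.1 in Sham6w, lysozyme Lyz2 1100 ± 137 in DSS and 934 ± 142 in Sham6w, and fibronectin Fn1 612 ± 150 in DSS and 827 ± 30.4 in Sham6w. Their log2 differences were 0.20 ± 0.18, 0.24 ± 0.12 and -0.46 ± 0.15, and none passed.

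The patrolling monocyte genes lay on the other side of 0. Cx3cr1 (ENSMUSG00000052336, chr9:119901616-120069879, minus strand), the receptor for the membrane-bound chemokine fractalkine, had 79.0, 40.7, 79.8 and 71.7 normalized counts in DSS and 151, 135 and 157 in Sham6w. The highest DSS library was well below the lowest Sham6w library, and the log2 difference was -1.16 ± 0.24 (adjusted p = 0.0281; called in 4 of the 7 fits that left out a library). Pou2f2 (ENSMUSG00000008496, chr7:25087344-25179726, minus strand), the transcription factor Oct-2, had 53.5, 69.7, 66.3 and 61.6 in DSS and 194, 124 and 116 in Sham6w (log2 difference -1.16 ± 0.26, adjusted p = 0.0308). These were the 2 members of 15 tested that were lower, and none was higher, against 0.54% and 1.05% of all genes. The median of the list was -0.35, and 13 of 15 members stood below 0, against 51.8% of all genes tested. In 3 of the 15 every DSS library was below every Sham6w library, a pattern shown by 7.44% of all genes tested. Nr4a1 averaged 300 ± 76.1 in DSS and 372 ± 11.7 in Sham6w, the sialoglycoprotein Spn 12.6 ± 4.99 in DSS and 22.7 ± 6.58 in Sham6w, and the receptor Treml4 8.36 ± 3.91 in DSS and 9.18 ± 3.13 in Sham6w. None of these passed. In these bulk samples, fewer patrolling cells and less RNA of these genes per cell cannot be told apart.

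Among 26 lineage transcription factors, Zeb2 and Pou2f2 were lower, against 0.54% of all genes, none was higher, and the median was -0.29. Zeb2 (ENSMUSG00000026872, chr2:44983632-45117395, minus strand), a zinc finger repressor, had 202, 158, 149 and 136 normalized counts in DSS and 391, 260 and 246 in Sham6w, with no overlap (log2 difference -0.87 ± 0.22, adjusted p = 0.043). The inhibitor of basic helix-loop-helix factors Id2 averaged 158 ± 39.7 in DSS and 185 ± 44.0 in Sham6w, and the leucine zipper factor Maf 134 ± 17.2 in DSS and 147 ± 40.0 in Sham6w, and neither passed. Of the 11 chemokine receptors tested, Cx3cr1 alone passed, against 0.54% of all genes called lower.

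**Figure D2:**
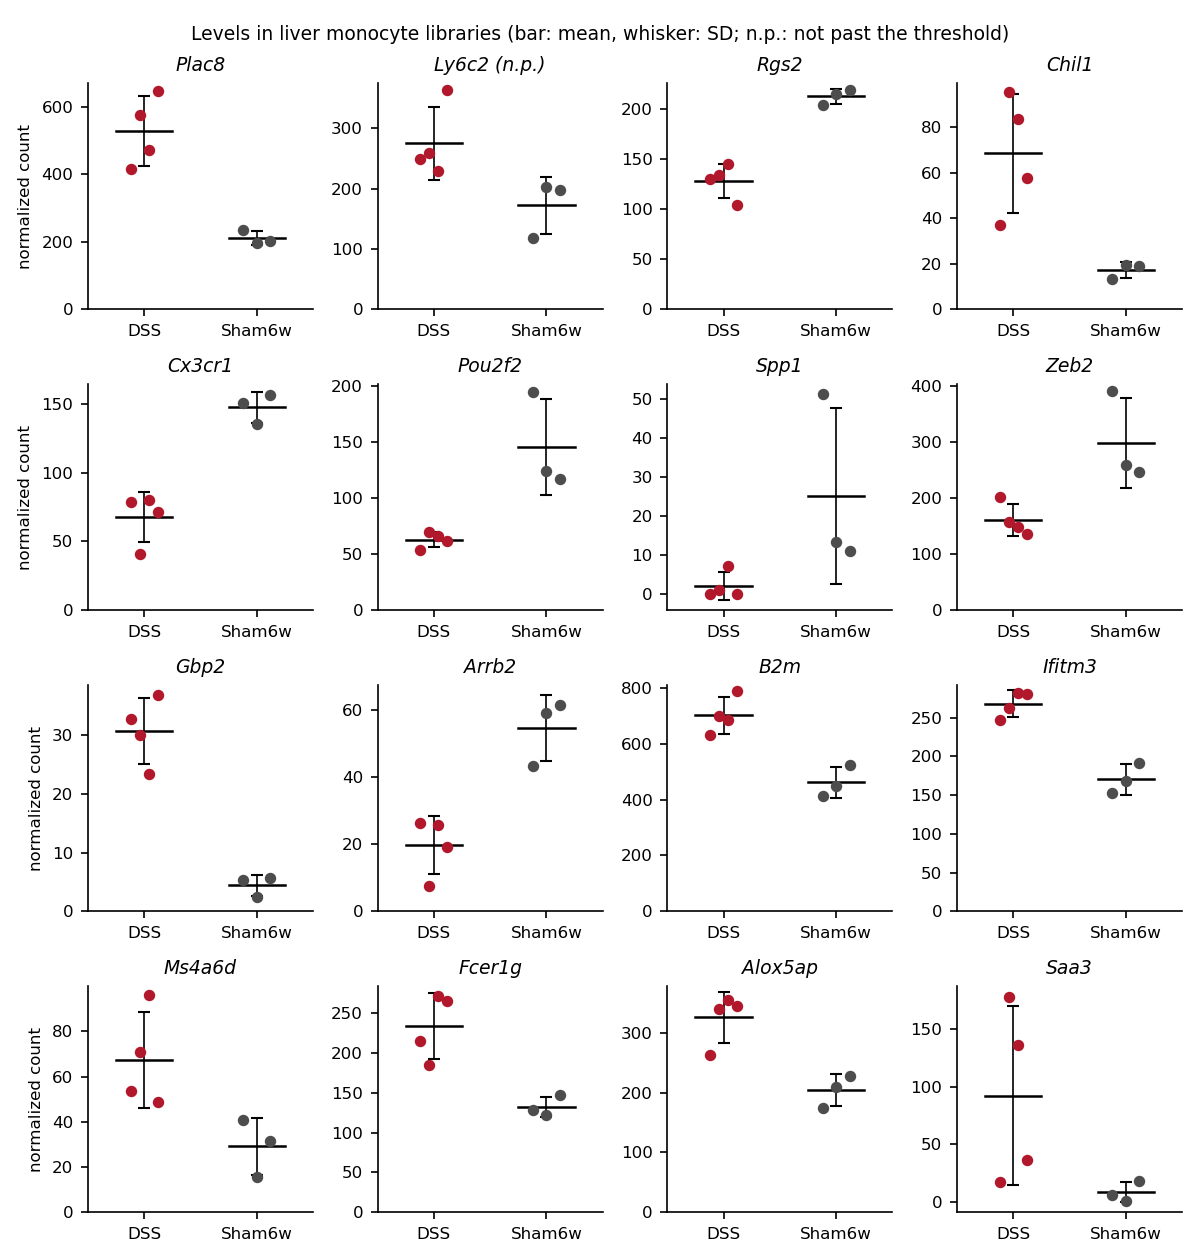
Normalized counts of 16 genes in the 4 DSS libraries (red, left) and the 3 Sham6w libraries (grey, right), with the mean as a bar and the SD as a whisker. The groups do not overlap in 15 of the genes shown, and overlap in Saa3, where DSS replicate 1 lies at 17.2 and Sham6w replicate 4 at 17.9. Over all genes tested, every DSS library was above every Sham6w library in 8.57% and below in 7.44%. All genes shown but Ly6c2 were called on these same libraries, so the count is no separate support.

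Several myeloid effector genes outside these lists also rose. Chil1 (ENSMUSG00000064246, chr1:134182176-134190181, plus strand), a secreted chitinase-like protein of macrophages and neutrophils, had 37.2, 95.4, 83.5 and 57.9 normalized counts in DSS and 13.1, 19.3 and 19.0 in Sham6w. The lowest DSS library was above the highest Sham6w library, and the log2 difference was 1.87 ± 0.35 (adjusted p = 0.0208). Saa3 (ENSMUSG00000040026, chr7:46711998-46715700, minus strand), an acute-phase serum amyloid that macrophages make in inflammation, had 17.2, 178, 136 and 36.8 in DSS and 6.56, 1.21 and 17.9 in Sham6w. Its log2 difference was 3.24 ± 0.64 (adjusted p = 0.0243), although DSS replicate 1 lay within the range of the controls. The calcium-binding protein S100a11 averaged 80.0 ± 27.7 in DSS and 38.6 ± 4.41 in Sham6w (log2 difference 0.98 ± 0.23, adjusted p = 0.0345). Saa3 and S100a11 were the 2 of 14 S100 and antimicrobial genes called higher, against 1.05% of all genes. Of the 14, 9 stood above 0 and 5 below.

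The neutrophil alarmins S100a8 and S100a9, members of the same list, did not pass. S100a8 had 16.3, 79.3, 98.3 and 5.51 normalized counts in DSS and 23.6, 278 and 217 in Sham6w. S100a9 had 3.63, 12.9, 27.0 and 0.919 in DSS and 13.1, 258 and 197 in Sham6w (log2 difference -3.55 ± 1.08, adjusted p = 0.0807). Both were high in Sham6w replicates 3+6 and 4 and low in replicate 1+2+5, whose values fell among those of DSS. The share of reads in neutrophil markers was 0.237% and 0.209% in Sham6w replicates 3+6 and 4, against 0.032% in replicate 1+2+5. That list holds S100a9 itself, so its share is no separate sign of this split. The part of neutrophils in these values was not tested.

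Fcer1g, Alox5ap, Ms4a6d and Fgl2 rose as well. Fcer1g (ENSMUSG00000058715, chr1:171229572-171234365, minus strand), the signalling chain shared by activating Fc receptors, had 214, 184, 272 and 265 normalized counts in DSS and 129, 122 and 147 in Sham6w (log2 difference 0.80 ± 0.17, adjusted p = 0.0308). It was the 1 of 5 Fc receptor genes that passed, against 1.05% of all genes called higher. The ligand-binding receptors Fcgr2b and Fcgr3 averaged 215 ± 58.9 and 86.8 ± 9.10 in DSS and 203 ± 90.4 and 82.4 ± 18.4 in Sham6w. Alox5ap (ENSMUSG00000060063, chr5:149264767-149288153, plus strand), the protein that presents arachidonic acid to 5-lipoxygenase for leukotriene synthesis, had 263, 340, 355 and 344 in DSS and 174, 209 and 227 in Sham6w (log2 difference 0.67 ± 0.15, adjusted p = 0.0308). No other of the 10 prostaglandin and leukotriene genes tested passed, and 1.05% of all genes were called higher. Ms4a6d (ENSMUSG00000024679, chr19:11586604-11604849, minus strand), a membrane-spanning protein of myeloid cells, had 53.5, 70.8, 95.8 and 48.7 in DSS and 40.7, 15.7 and 31.3 in Sham6w (log2 difference 1.22 ± 0.29, adjusted p = 0.0345). It was the 1 of 7 Ms4a genes that passed, against 1.05% of all genes called higher. Fgl2 (ENSMUSG00000039899, chr5:21372642-21378374, plus strand), a fibrinogen-like protein with prothrombinase and immune-regulatory roles, averaged 57.7 ± 10.9 in DSS and 24.9 ± 5.95 in Sham6w (log2 difference 1.19 ± 0.30, adjusted p = 0.049), and passed in 0 of the 7 fits that left out a library.

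Spp1 was the called gene with the most negative difference. Spp1 (ENSMUSG00000029304, chr5:104435118-104441050, plus strand), which encodes the secreted phosphoprotein osteopontin, had 0, 1.07, 7.37 and 0 normalized counts in DSS and 51.2, 13.3 and 11.2 in Sham6w. No DSS library reached the lowest Sham6w library, and the log2 difference of -3.35 ± 0.58 (adjusted p = 0.0129) held its call in all 7 fits that left out a library. Sham6w replicate 1+2+5 was far above the other controls. Spp1 was the 1 of 14 lipid- and scar-associated macrophage genes that passed, against 0.54% of all genes called lower. The median of that list was -0.04. The galectin Lgals3 averaged 190 ± 28.8 in DSS and 122 ± 28.0 in Sham6w, and vimentin (Vim) 290 ± 31.8 in DSS and 241 ± 26.9 in Sham6w, and neither passed.

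Arrb2 and Sat1 were among the 12 largest falls named. Rgs2 was the 1 of 13 glucocorticoid-induced genes that passed, against 0.54% of all genes called lower. Arrb2 (ENSMUSG00000060216, chr11:70432635-70440828, plus strand), the scaffold beta-arrestin that ends signalling of G protein-coupled receptors, had 26.3, 7.50, 25.8 and 19.3 normalized counts in DSS and 43.3, 59.2 and 61.5 in Sham6w (log2 difference -1.54 ± 0.34, adjusted p = 0.0308). Rgs2 (ENSMUSG00000026360, chr1:143999338-144004161, minus strand), a regulator of G protein signalling, had 130, 134, 145 and 104 in DSS and 205, 215 and 219 in Sham6w (log2 difference -0.74 ± 0.15, adjusted p = 0.0243). Sat1, the enzyme that acetylates spermidine and spermine for their breakdown, averaged 155 ± 48.0 in DSS and 298 ± 86.3 in Sham6w (log2 difference -0.95 ± 0.23, adjusted p = 0.0385). In all 3 genes every DSS library was below every Sham6w library, which the naming rule required of Arrb2 and Sat1. None of the 10 efferocytosis receptors and bridging proteins passed, and 9 of the 10 stood below 0 (median -0.42). Of these, the lipoprotein receptor-related receptor Lrp1 averaged 51.8 ± 3.34 in DSS and 74.7 ± 13.0 in Sham6w. The scavenger receptors Stab1 and Stab2, which liver endothelial cells also carry, averaged 62.8 ± 21.7 and 33.1 ± 14.9 in DSS and 77.1 ± 26.4 and 72.9 ± 7.69 in Sham6w.

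Interferons act through cell surface receptors that switch on sets of antimicrobial genes. Interferon gamma acts mainly through a promoter element called the gamma activated site, and type I interferons mainly through the interferon-stimulated response element. The guanylate-binding proteins (Gbp) and immunity-related GTPases (such as Igtp) attack vacuoles that hold microbes, and Ifitm proteins block the entry of viruses. The class I light chain B2m carries peptides to the cell surface together with the class I heavy chains. The interferon genes called were Gbp2, B2m and Ifitm3, and their start regions are shown so that the letters of both elements can be seen. The sequences are from RefSeq (GRCm38.p6) and run 5′ to 3′ on the strand of the gene. Capitals mark GAAANNGAA, the core of the interferon-stimulated response element, or TTCNNNGAA, the gamma activated site, searched on both strands. For Gbp2 and B2m the 250 bases before the RefSeq start are given, and for Ifitm3 the 30 bases that follow it.
Gbp2, chr3:142620413-142620662, plus strand: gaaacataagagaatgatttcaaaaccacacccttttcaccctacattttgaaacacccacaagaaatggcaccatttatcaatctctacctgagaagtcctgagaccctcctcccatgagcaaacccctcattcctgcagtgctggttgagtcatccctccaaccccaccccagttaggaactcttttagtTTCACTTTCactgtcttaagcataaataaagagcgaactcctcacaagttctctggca
B2m, chr2:122147437-122147686, plus strand: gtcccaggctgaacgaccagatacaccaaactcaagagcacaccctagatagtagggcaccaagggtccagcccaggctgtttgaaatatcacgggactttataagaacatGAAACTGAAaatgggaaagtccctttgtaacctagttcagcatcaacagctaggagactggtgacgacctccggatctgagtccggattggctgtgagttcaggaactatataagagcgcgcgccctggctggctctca
Ifitm3, chr7:141010715-141010744, minus strand: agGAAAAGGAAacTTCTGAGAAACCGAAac

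These starts are those of RefSeq, and for Gbp2 and Ifitm3 they lie inside the GENCODE M21 gene spans that are given with the values. The match in Gbp2 begins 58 bases and that in B2m 139 bases before the RefSeq start. Of the 2 core matches in Ifitm3, 1 begins at base 3 and 1 at base 20 counted from the RefSeq start, and the second overlaps the gamma activated site that begins at base 14. Of all 32851 promoters in the table (250 bases before to 50 after the start), 8.56% held the core and 8.30% held the gamma activated site. The table held 11 promoters of 10 interferon-inducible GTPases, and 9 of these promoters held the core and 6 the gamma activated site. Of 34 promoters of the type I interferon response genes, 19 held the core and 3 the gamma activated site. Of 19 promoters of the class I genes, 4 held the core and 1 the gamma activated site. These are matches of letters and show no binding.

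The interferon-inducible GTPases were shifted upwards as a list, and Gbp2 was the member that passed. Gbp2 (ENSMUSG00000028270, chr3:142620602-142638008, plus strand) had 32.7, 30.0, 23.3 and 36.8 normalized counts in DSS and 5.25, 2.41 and 5.59 in Sham6w. The groups were far apart at these low counts, with a log2 difference of 2.59 ± 0.62 (adjusted p = 0.0385), but the gene passed in only 1 of the 7 fits that left out a library. Of the 16 GTPases tested, 1 was higher and none was lower, against 1.05% and 0.54% of all genes. Of the 16, 15 stood above 0, against 48.2% of all genes, and the median log2 difference was 1.44. In 6 of the 16 every DSS library was above every Sham6w library, against 8.57% of all genes tested, and in Gbp9 every DSS library was below. The summed level of the 17 GTPases listed was 673, 588, 307 and 712 in DSS and 211, 229 and 220 in Sham6w. Every DSS library was above every Sham6w library, and DSS replicate 3 was the lowest of the DSS libraries. The largest members by level that did not pass were Ifi47, with 142, 86.8, 79.8 and 171 in DSS and 47.2, 33.8 and 34.7 in Sham6w (log2 difference 1.55 ± 0.45, adjusted p = 0.0699), Gvin1 (0.61 ± 0.31) and Iigp1 (1.64 ± 0.81). Over the 16 other settings and left-out libraries the list median ran from 1.14 to 2.06.

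Interferon gamma targets outside the GTPases and type I interferon response genes gave no calls. Of the 13 interferon gamma targets outside the GTPases that were tested, none passed, 11 stood above 0 and their median was 0.54. Among them Irf1 averaged 216 ± 71.3 in DSS and 142 ± 24.9 in Sham6w, and the thiol reductase Ifi30 94.8 ± 27.6 in DSS and 89.1 ± 21.6 in Sham6w. Of the 35 type I interferon response genes none passed, 18 stood above 0 and 17 below, and the median was 0.00. Among its members were Ly6e, with 402 ± 57.8 in DSS and 251 ± 114 in Sham6w, and Ifi203, with 273 ± 86.0 in DSS and 339 ± 87.7 in Sham6w.

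Of the genes of class I presentation, B2m rose. B2m (ENSMUSG00000060802, chr2:122147686-122153083, plus strand) had 632, 701, 684 and 790 normalized counts in DSS and 415, 450 and 522 in Sham6w, with no overlap (log2 difference 0.60 ± 0.13, adjusted p = 0.0308). It was the 1 of 20 members that passed, against 1.05% of all genes called higher. Of the 20, 17 stood above 0, against 48.2% of all genes, and the median was 0.49. The heavy chains did not pass: H2-K1 averaged 772 ± 193 in DSS and 848 ± 191 in Sham6w (log2 difference -0.14 ± 0.24), and H2-D1 292 ± 46.0 in DSS and 245 ± 22.6 in Sham6w (0.24 ± 0.16). The proteasome activator Psme1 averaged 133 ± 31.5 in DSS and 90.3 ± 20.1 in Sham6w and did not pass. None of the 10 class II presentation genes passed, with a median of 0.17. H2-Ab1 averaged 407 ± 51.7 in DSS and 367 ± 40.1 in Sham6w, and the invariant chain Cd74 241 ± 25.9 in DSS and 308 ± 66.0 in Sham6w. Both of these overlapped between groups.

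Ifitm3 (ENSMUSG00000025492, chr7:141009586-141010770, minus strand) was the 1 of 4 tested Ifitm genes that passed, against 1.05% of all genes called higher. It had 247, 263, 282 and 281 normalized counts in DSS and 152, 168 and 191 in Sham6w, with no overlap (log2 difference 0.66 ± 0.17, adjusted p = 0.0457; called in 2 of the 7 fits that left out a library). Ifitm6, a myeloid member of the family, averaged 127 ± 26.4 in DSS and 82.7 ± 12.5 in Sham6w and Ifitm2 50.8 ± 13.0 in DSS and 31.6 ± 4.13 in Sham6w, with log2 differences of 0.60 ± 0.19 and 0.64 ± 0.25. Neither passed.

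Genes of endotoxin sensing and inflammatory cytokines gave no calls. Of the 17 endotoxin and Toll-like receptor genes none passed (median 0.17). The co-receptor Cd14 averaged 51.5 ± 27.1 in DSS and 40.9 ± 8.61 in Sham6w, and Tlr4 was under the filter, at no more than 4.29 in DSS and 3.62 in Sham6w. Of the 21 inflammatory cytokine and NF-kB feedback genes none passed (median 0.22). The cytokine Il1b averaged 505 ± 169 in DSS and 386 ± 20.8 in Sham6w, and its DSS libraries overlapped those of Sham6w. The inhibitors Nfkbia (1066 ± 177 in DSS and 785 ± 33.2 in Sham6w) and Nfkbiz (357 ± 62.7 in DSS and 237 ± 20.3 in Sham6w) did not overlap between groups and did not pass. A gene that did not pass is not shown to be unchanged at this number of libraries.

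**Figure D3:**
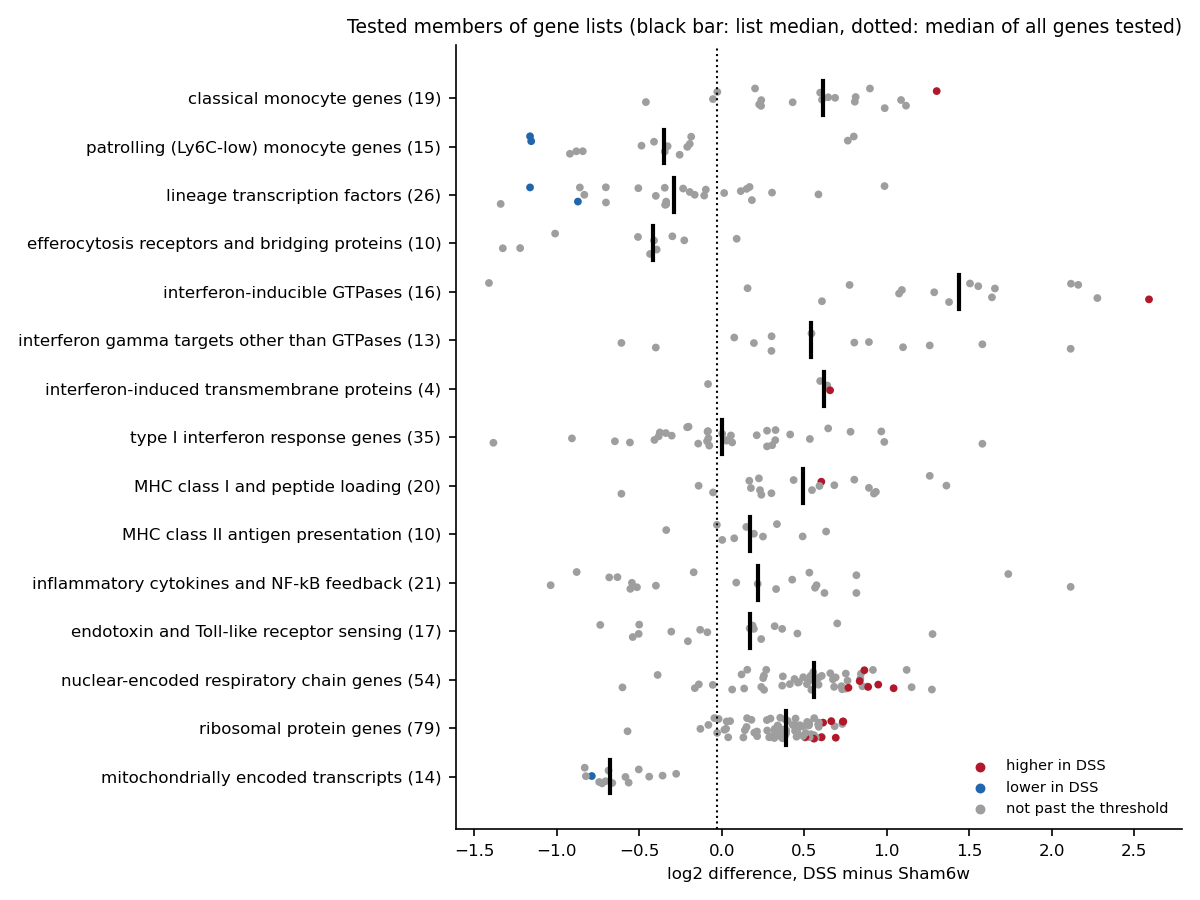
Each point is a tested member of the named list, placed by its log2 difference (DSS minus Sham6w), with list sizes in brackets. The black bars are list medians, from 1.44 for the interferon-inducible GTPases to -0.68 for the mitochondrially encoded transcripts, and the dotted line at -0.03 is the median of all genes tested.

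The respiratory chain split by the genome that encodes it. Of 54 nuclear-encoded genes tested, 6 were higher and none was lower, against 1.05% and 0.54% of all genes. Of the 54, 49 stood above 0, against 48.2% of all genes, and the median log2 difference was 0.56. The 6 were the cytochrome c oxidase subunits Cox5b, Cox6b1, Cox7a2 and Cox8a and the ATP synthase subunits Atp5g3 and Atp5j. Cox8a (ENSMUSG00000035885, chr19:7215153-7217616, minus strand) had 154, 159, 184 and 224 normalized counts in DSS and 65.6, 99.0 and 120 in Sham6w (log2 difference 0.95 ± 0.22, adjusted p = 0.0345). Atp5j (ENSMUSG00000022890, chr16:84827866-84835625, minus strand) had 212, 216, 290 and 197 in DSS and 130, 121 and 115 in Sham6w (log2 difference 0.89 ± 0.19, adjusted p = 0.0308). The groups did not overlap in either. Of the mitochondrially encoded transcripts, 1 of 14 was lower, against 0.54% of all genes. All 14 stood below 0, against 51.8% of all genes tested, and the median was -0.68. The one called was the oxidase subunit mt-Co1, with 499, 464, 468 and 422 in DSS and 1110, 675 and 682 in Sham6w (log2 difference -0.79 ± 0.19, adjusted p = 0.0415). Reads of mitochondrially encoded transcripts cannot be told apart with certainty from those of their nuclear copies. Gm29216 and Gm28439, nuclear copies of parts of the mitochondrial genome, were called in the same direction.

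Tmem258, Spcs2, Tma7 and Snrpb2 were among the 12 largest rises named. Tmem258 (ENSMUSG00000036372, chr19:10204014-10207824, plus strand), a subunit of the oligosaccharyltransferase that glycosylates new proteins, had 142, 160, 193 and 190 normalized counts in DSS and 59.0, 70.0 and 91.7 in Sham6w (log2 difference 1.22 ± 0.21, adjusted p = 0.0129). It had the smallest p of the 6112 genes, and passed in 6 of the 7 fits that left out a library. The signal peptidase subunit Spcs2 averaged 113 ± 18.2 in DSS and 58.1 ± 12.3 in Sham6w (log2 difference 0.96 ± 0.21, adjusted p = 0.0308). The translation-associated protein Tma7 averaged 86.4 ± 9.37 in DSS and 43.2 ± 7.70 in Sham6w, and the splicing protein Snrpb2 180 ± 28.4 in DSS and 96.0 ± 18.8 in Sham6w. No libraries overlapped in these 4 genes, which the naming rule required. Of the 79 ribosomal protein genes 9 were higher and none was lower, against 1.05% and 0.54% of all genes. Of the 79, 73 stood above 0, against 48.2% of all genes, and the median was 0.39. Rps16 had 662, 715, 669 and 748 in DSS and 504, 452 and 468 in Sham6w (log2 difference 0.56 ± 0.12, adjusted p = 0.0281). Several of these genes have processed copies (Rpl10 and Rps26, for example), and reads may be split among them.

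Both long noncoding RNAs kept in the nucleus that were tested, Malat1 and Neat1, were lower, against 0.54% of all genes. Malat1 (ENSMUSG00000092341, chr19:5795690-5802672, minus strand), an abundant RNA of nuclear speckles, had 1462, 1434, 816 and 577 normalized counts in DSS and 3331, 2848 and 2288 in Sham6w (log2 difference -1.48 ± 0.30, adjusted p = 0.0243). Neat1, the noncoding RNA scaffold of paraspeckles, had 79.9, 56.8, 51.6 and 35.9 in DSS and 230, 144 and 102 in Sham6w (log2 difference -1.46 ± 0.36, adjusted p = 0.0412). Both were lower in every DSS library, as the rule for the 12 largest falls required. Of the other genes among the 12 largest falls, the chromatin remodelling subunit Bptf averaged 36.8 ± 5.33 in DSS and 95.7 ± 27.5 in Sham6w, the mRNA export subunit Thoc2 58.6 ± 14.5 in DSS and 121 ± 17.3 in Sham6w, and the scaffold attachment factor Safb2 25.5 ± 9.17 in DSS and 58.0 ± 9.53 in Sham6w. Bod1l, which protects stalled replication forks, averaged 25.1 ± 8.02 in DSS and 65.8 ± 11.9 in Sham6w, and Prrc2c 112 ± 45.3 in DSS and 247 ± 34.1 in Sham6w. In each of these the libraries of the groups did not overlap, which the naming rule required. The log2 differences ran from -1.40 ± 0.32 for Bod1l to -1.05 ± 0.25 for Thoc2. The ribosomal RNA transcript CT010467.1 was lower in DSS by 1.09 ± 0.18 on the log2 scale (adjusted p = 0.0129).

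The make-up of the reads moved with the groups. Ribosomal protein genes held 13.8, 13.2, 14.9 and 15.7% of the reads in DSS and 9.94, 10.4 and 11.2% in Sham6w. Mitochondrially encoded transcripts held 3.40, 3.44, 3.54 and 2.96% in DSS and 6.54, 4.58 and 4.76% in Sham6w. Malat1 and Neat1 together held 0.538, 0.514, 0.3 and 0.202% in DSS and 1.14, 1.01 and 0.845% in Sham6w, and the ribosomal RNA transcript 1.23 to 2.01% in DSS and 2.67 to 4.59% in Sham6w. None of these shares overlapped between the groups. In the monocytes of the 3 ligated groups, ribosomal protein genes held 14.2 to 18.6% of the reads, so the Sham6w libraries were the lowest of all 19 monocyte libraries in this share. Among 5333 protein-coding genes tested, the median log2 difference fell with exon length, at 0.20, 0.01, -0.18 and -0.38 over 4 equal classes from the shortest to the longest. Spearman's rho across these genes, which share the same libraries, was -0.334. Exon length had a median of 1636.5 bases among the 46 protein-coding genes called higher and 8204 among the 22 called lower. The class of shortest genes held 42.5 to 47% of their reads in DSS and 37.6 to 40.5% in Sham6w.

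When each library was freed of its trend on exon length, a setting chosen after the data were seen, 10 genes were higher and 13 lower, against 64 and 33 without it. Of the 39 named genes that were called, 14 passed in both. Among them Chil1, Saa3, Tmem258, Spcs2, Snrpb2 and Rps20 were higher, and Cx3cr1, Spp1, Rgs2, Arrb2, Malat1, mt-Co1 and CT010467.1 were lower. Plac8, Gbp2, B2m, Ifitm3, Fcer1g, Alox5ap, Ms4a6d, Pou2f2 and Zeb2 did not pass there. The nuclear-encoded respiratory chain genes Atp5g3, Atp5j, Cox7a2 and Cox8a did not pass either. The same held for Tma7, Rps16, Rpl10, S100a11, Fgl2, Sat1, Neat1, Bptf, Thoc2, Safb2, Bod1l and Prrc2c. The list medians were 0.56 for classical monocyte genes, 1.44 for the interferon-inducible GTPases and 0.32 for the nuclear-encoded respiratory chain with this adjustment. The part of RNA quality in the length trend was not tested.

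**Figure D4:**
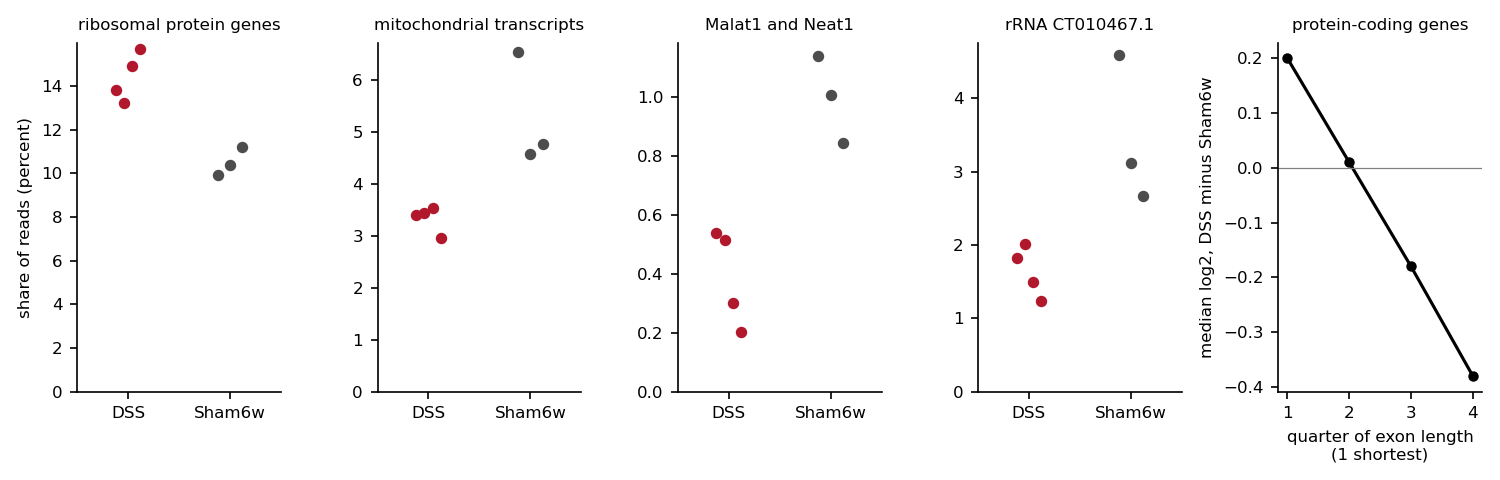
The first 4 panels give the percent of reads per library in ribosomal protein genes, mitochondrially encoded transcripts, Malat1 and Neat1, and the ribosomal RNA transcript CT010467.1, for DSS (red, left) and Sham6w (grey, right), and the last panel the median log2 difference of protein-coding genes by class of exon length (1 shortest, 4 longest). No DSS library overlaps a Sham6w library in the 4 shares, and the medians run from 0.20 in the shortest to -0.38 in the longest class.

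The change with colitis was set against that in Kupffer cells and monocyte-derived macrophages of the same injury groups, by a test of the difference between effects over 7555 genes. Kupffer cells gave 4 DSS and 4 Sham6w libraries and monocyte-derived macrophages 4 DSS and 3 Sham6w libraries, some of them joining replicate numbers, and the labels do not tie the cells of a library to the same animals across cell types. Errors of levels are SDs and errors of differences of log2 effects are SEs. Against Kupffer cells 18 genes differed (0.238%), 12 with the more positive change in monocytes (0.159%) and 6 with the more negative (0.0794%). Fcer1g and Alox5ap were among the 12. Fcer1g averaged 234 ± 41.6 in DSS and 132 ± 12.7 in Sham6w monocytes, and 199 ± 11.8 in DSS and 256 ± 24.6 in Sham6w Kupffer cells (difference of log2 effects 1.16 ± 0.23, adjusted p = 0.0107). Alox5ap averaged 325 ± 42.0 in DSS and 204 ± 26.7 in Sham6w monocytes, and 115 ± 17.8 in DSS and 156 ± 12.1 in Sham6w Kupffer cells (1.11 ± 0.22, adjusted p = 0.0136). Both genes thus stood higher with colitis in monocytes and lower in Kupffer cells. In monocyte-derived macrophages Fcer1g also stood higher with colitis, at 359 ± 35.6 in DSS and 178 ± 41.0 in Sham6w. Alox5ap stood lower there, at 163 ± 23.3 in DSS and 215 ± 60.7 in Sham6w. For neither gene did the difference of effects between monocytes and these macrophages pass. The apolipoprotein Apoe, chosen after its values were seen, averaged 324 ± 88.7 in DSS and 321 ± 29.0 in Sham6w monocytes, and 546 ± 150 in DSS and 2155 ± 438 in Sham6w Kupffer cells (1.96 ± 0.35, adjusted p = 0.00242). The survivin gene Birc5, chosen likewise, averaged 0.534 ± 0.63 in DSS and 2.79 ± 1.82 in Sham6w monocytes, and 30.1 ± 7.81 in DSS and 0.951 ± 1.10 in Sham6w Kupffer cells (-5.45 ± 0.86, adjusted p = 0.000394). The test gave 11 genes without the monocyte library Sham6w replicate 1+2+5.

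Against monocyte-derived macrophages 3 genes differed (0.0397%), all with the more negative change in monocytes. They were F8, the clotting factor made by liver endothelium, and Pear1 and Plekhg1, named after their values were seen. F8 averaged 46.7 ± 20.4 in DSS and 52.6 ± 18.2 in Sham6w monocytes, and 31.1 ± 5.76 in DSS and 1.81 ± 3.14 in Sham6w monocyte-derived macrophages (-4.34 ± 0.91, adjusted p = 0.0375). The test gave 0 genes without the monocyte library Sham6w replicate 3+6, DSS replicate 2 or DSS replicate 3, and 1 without DSS replicate 4. For Gbp2, Plac8 and Cx3cr1 neither difference between cell types passed. Their log2 changes with colitis were 2.59, 1.3 and -1.16 in monocytes, 2.75, 2.48 and 0.48 in Kupffer cells and 3.68, 2.19 and 0.02 in monocyte-derived macrophages.

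The change with colitis also differed in monocytes of ligated mice. In the test of CBDL+DSS minus CBDL6w against DSS minus Sham6w, 19 of 6112 genes differed (0.311%), 7 with the more positive change in ligated mice (0.115%) and 12 with the more negative (0.196%). Plac8 averaged 248 ± 101 in CBDL+DSS and 452 ± 58.7 in CBDL6w, and 529 ± 104 in DSS and 211 ± 21.7 in Sham6w (difference of log2 effects -2.27 ± 0.35, adjusted p = 0.0112). Its level was thus lower with colitis in ligated mice and higher in mice without ligation, and the CBDL6w mean lay near that of DSS. Ifitm3 averaged 149 ± 18.6 in CBDL+DSS and 221 ± 13.7 in CBDL6w, and 268 ± 16.9 in DSS and 170 ± 19.7 in Sham6w (-1.22 ± 0.23, adjusted p = 0.0205).

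Rgs2 went the other way, with 216 ± 28.4 in CBDL+DSS and 167 ± 7.38 in CBDL6w, and 128 ± 17.4 in DSS and 213 ± 7.50 in Sham6w (1.10 ± 0.20, adjusted p = 0.0205). Arrb2 did likewise, with 40.4 ± 7.97 in CBDL+DSS and 26.5 ± 6.60 in CBDL6w, and 19.7 ± 8.75 in DSS and 54.7 ± 9.92 in Sham6w (2.15 ± 0.47, adjusted p = 0.0482). Tmem258 (-1.33 ± 0.28), Tma7 (-1.32 ± 0.24), Snrpb2 (-1.28 ± 0.23) and Rps16 (-0.82 ± 0.16) were also among the 12 genes with the more negative change in ligated mice. Each had its lowest group mean of the 4 in Sham6w. The test gave 2 genes without Sham6w replicate 3+6, 9 without DSS replicate 4, 10 without Sham6w replicate 1+2+5 and 31 without DSS replicate 2. The labels give no time for CBDL+DSS, and the ligated and unligated groups also differ in their share of endothelial markers, whose part in these differences was not tested.

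**Figure D5:**
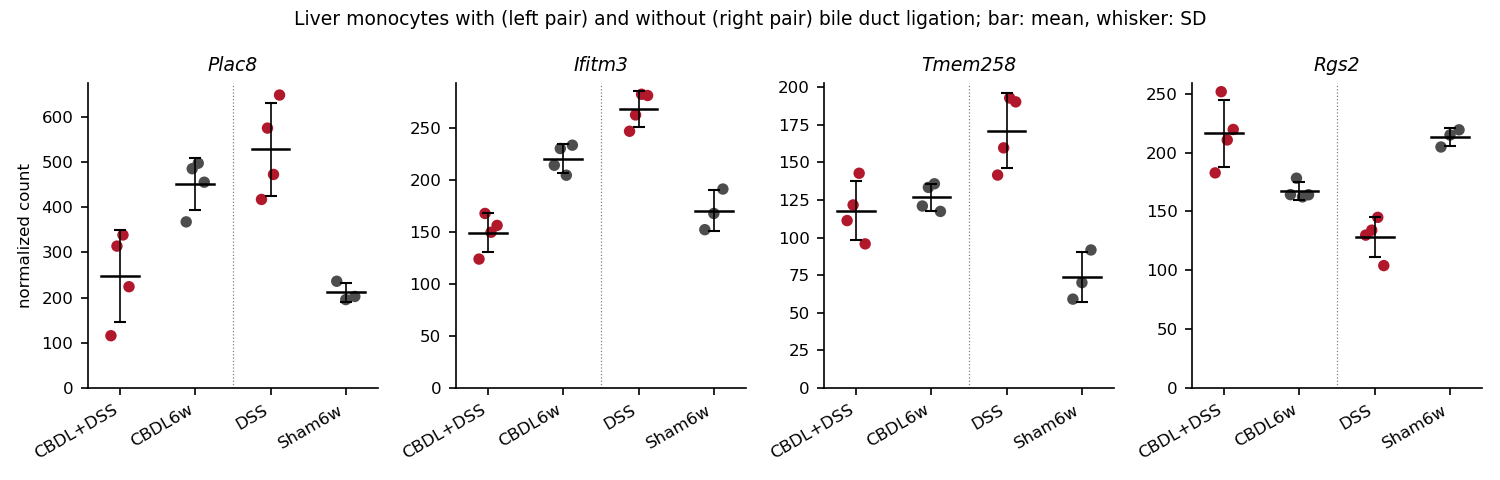
Normalized counts of Plac8, Ifitm3, Tmem258 and Rgs2 in monocytes of ligated mice with colitis (CBDL+DSS) and without (CBDL6w), left pair, and of unligated mice with colitis (DSS) and without (Sham6w), right pair, with the mean as a bar and the SD as a whisker. Plac8 is at 529 in DSS and 211 in Sham6w but at 248 in CBDL+DSS and 452 in CBDL6w.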

How the data were processed

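Gene expression was measured with Lexogen QuantSeq 3' mRNA libraries with a UMI module, per the labels' protocols. The submitters' processing notes name, with no order or role, STAR 2.7.5b, RSEM 1.3.1, DESeq2, UMI-tools 1.0.1, Trimmomatic (0.39 and 0.39-1) and the build GRCm38.p6. The authors deposited 1 table of 25307 genes in 58 libraries, named by them as DESeq2-normalized counts. Its values behave as whole counts divided by 1 factor per library, so the unit of the deposited signal is a normalized count. Gene IDs were matched to a symbol for 25242 genes and not for 65. Whole counts were computed from the deposited signal for all 58 libraries, with 100.0% of values above 0 whole within 0.01. In 3 libraries of other cells the size factor was within 1 percent of 1. These 3 were not taken as recovered reads for edgeR and DESeq2, but entered the setting of equal library totals. Depth in reads limits the precision at low counts.

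Groups were taken from the labels. The main test was limma 3.58.1 (R 4.3.3, trend and robust, two-sided) on log2 of the normalized count plus a pseudocount of 1, so that differences of low genes are understated. A single fit covered the 19 monocyte libraries of all 5 injury groups, which share 1 estimate of the spread. Genes with at least 10 normalized counts in at least 3 libraries were tested, with Benjamini-Hochberg adjusted p under 0.05 as the threshold over all of them. Differences between effects came from the same fit (ligation) or from a fit over the 58 libraries (cell types). Values are mean ± SD for levels and ± SE for log2 differences. The fit was tested on simulated data. Alternatives were another pseudocount, no filter, equal library totals, edgeR 4.0.16 and DESeq2 1.42.0 on recovered reads, a replicate block, fewer libraries, each library left out and an adjustment for exon length, added after the data were seen.

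The members and lists were chosen with earlier results of these data known. Named genes were the 12 largest rises and 12 largest falls among called genes with no overlap, a group mean reaching 50 on the higher side and no predicted or pseudogene name, up to 4 called members of each list, fixed markers, and the 3 members of highest level in lists described. Other genes (Apoe, Birc5, F8, Pear1, Plekhg1, Gbp9, Usp45, Rps26, Cox5b, Cox6b1, Gm29216 and Gm28439) were named after their values were seen. Some genes that these rules select are not reported here.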

Additional observations from a re-analysis of the deposited data

Results flagged for a closer look

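Over the 4 DSS libraries, 124 measures (levels of named genes and shares of reads) were checked for 1 library far from the others, and 3 had one, where chance gives about 1 in 20. Spp1 was at 7.37 normalized counts in DSS replicate 3, against 0 to 1.07 in the other DSS libraries. Alox5ap was at 263.2 in DSS replicate 1, against 340 to 355 in the others. H2-K1 was at 1061.0 in DSS replicate 4, against 667 to 684 in the others.

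The change with colitis differed between monocytes and Kupffer cells in Fcer1g (difference of log2 effects 1.16) and Alox5ap (1.11). With ligation minus without, it differed in Plac8 (-2.27), Tma7 (-1.32), Snrpb2 (-1.28), Rgs2 (1.10), Ifitm3 (-1.22), Rps16 (-0.82), Tmem258 (-1.33) and Arrb2 (2.15). The effects compared have separate controls, CBDL6w with ligation and Sham6w without.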

How the results depend on the processing

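The 97 genes called became 26 with no filter on low values, 51 with edgeR, 257 with DESeq2, 2 in a fit of the 7 DSS and Sham6w libraries alone, 11 with libraries of a single replicate number only and 23 after adjustment for transcript length. Leaving out each library gave 5 (without Sham6w replicate 3+6) to 134 genes (without Sham6w replicate 4), with 8 without DSS replicate 4, 17 without DSS replicate 3 and 30 without Sham6w replicate 1+2+5. With the replicate number as a block 7 genes were called. Same-numbered monocyte libraries of different injury groups correlated at -0.060 to 0.065 in their deviations from group means. These values do not cover libraries of other cell types, so they do not show whether the numbers pair cell types. Each gene called kept its sign in the alternatives in which it was tested, which reuse the same libraries and so give no separate support. The difference from Kupffer cells (18 genes) gave 55 with no filter and 11 to 18 without 1 library. The difference from monocyte-derived macrophages (3 genes) gave 58 with a pseudocount of 5, 49 with no filter and 0 to 4 without 1 library. The ligation difference (19 genes) gave 3 with no filter, 196 with DESeq2, 5 with the replicate block, 11 after adjustment for transcript length and 2 to 31 without 1 library (9 without DSS replicate 4, 10 without Sham6w replicate 1+2+5). The cause of these changes was not tested. edgeR and DESeq2 were not run across cell types, because 3 libraries of other cells had size factors near 1. With 235531 to 329439 reads in DSS and 237350 to 252775 in Sham6w, genes such as Spp1 and Gbp2 rest on few reads.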

Other observations

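None of 24 hypoxia and glycolysis genes passed, with 16 above 0 and a median log2 difference of 0.27. None of 17 LXR target and cholesterol genes passed, with 12 below 0 and a median of -0.32, and in 4 of them every DSS library was below every Sham6w library, against 7.44% of all genes tested. None of 27 lysosome and cathepsin genes (median 0.03), 15 complement and clotting genes (0.04), 13 chemokines (-0.13) or 15 cell cycle genes (0.06) passed. Of 14 heat shock protein genes none passed, 11 stood below 0 and the median was -0.38. Their summed share of reads overlapped between the groups, at 0.90 to 1.24% in DSS and 1.14 to 1.56% in Sham6w.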
